A study of Mus musculus with 3 samples.

Results

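Glutathione S-transferases join the tripeptide glutathione to reactive compounds, and this conjugation is the main route by which the body clears busulfan, an alkylating anticancer drug. The genes described here were 9 glutathione S-transferases and Gclc, chosen because of that route: the alpha-class enzymes Gsta1, Gsta4 and Gm3776, the mu-class enzymes Gstm1 and Gstm3, the pi-class enzyme Gstp1, the membrane-bound microsomal enzymes Mgst1, Mgst2 and Mgst3, and the catalytic subunit of glutamate-cysteine ligase, Gclc. All 10 were among the 13891 genes listed. The rule that picks them uses no measured value, but they were chosen with earlier results of these data known.

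Alpha, mu and pi enzymes are soluble proteins of the cytosol, and the alpha class is the one best known for conjugating busulfan. Microsomal enzymes sit in membranes and also act on lipids such as leukotrienes and lipid peroxides. Glutamate-cysteine ligase catalyses the rate-limiting step of glutathione synthesis, so it sets the supply of the substrate that the transferases use. In the small intestine, stem cells at the crypt base give rise to cycling progenitors, which mature on the villus into absorptive enterocytes or into mucus-secreting goblet cells, while Paneth cells stay in the crypt and secrete defensins.

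Cells came from the small intestine of male ICR mice, an outbred stock, that were 3 weeks old at the start. AOS 0 mice were the controls, given the vehicle (ddH2O) and no busulfan. B + A 0 mice received a single injection of busulfan at 40 mg/kg and then vehicle, and B + A 10 mice received the same injection and then alginate oligosaccharides (AOS) at 10 mg/kg, given daily by gavage for 2 weeks from the day after busulfan. Cells of 6 mice were combined for each group and run on 1 lane of a droplet system that counts the 3′ ends of RNA molecules with unique molecular identifiers (UMIs). Each group was therefore 1 library, no spread between mice could be measured, and no test was made. One descriptive label of the B + A 0 and B + A 10 samples named another group than their titles and treatments did, and the titles and treatments were followed.

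AOS 0 had 4106 cells with 35258551 UMIs, B + A 0 had 3195 with 26044381 and B + A 10 had 5352 with 23003083, at medians of 7371, 6407 and 3505 UMIs per cell. The B + A 10 cells were the shallowest. Libraries shared 82 cell barcodes. Of 12653 cells, 10329 fell into the 7 classes studied: 921 stem-like, 2347 cycling-like, 995 early enterocyte-like, 2366 mature enterocyte-like, 841 ileal enterocyte-like, 2426 goblet-like and 433 Paneth-like cells. The classes carried their markers: the enterocyte apolipoprotein Apoa1 had 232 UMIs per 10000 in mature enterocyte-like cells and 8.03 in cycling-like cells, the stem cell marker Olfm4 had 38.6 in stem-like and 0.422 in mature enterocyte-like cells, the mucin Muc2 had 92.6 in goblet-like cells and the lysozyme Lyz1 had 269 in Paneth-like cells. Apoa1 was also present where it is not made: T cell-like cells held 57.8, 74.2 and 63.6 UMIs per 10000 in AOS 0, then B + A 0, then B + A 10, and stem-like cells 6.49, 12.6 and 13.5. Enterocyte RNA was thus counted in other classes, for stem-like cells more so in both busulfan libraries, and its part in the ratios below was not tested.

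Near-identical copies limit what 3′ UMIs can say about single genes of these families, and the sequences show where. Gsta1 (GRCm38, chr9:78230656-78242684, plus strand) and Gm3776 (chr9:78257129-78269166, plus strand) are protein-coding neighbours 14.4 kb apart. Of the 401 windows of 100 bases in the last 500 bases of the Gsta1 transcript, 74.8% also occur in Gm3776, and 75.1% of the Gm3776 windows occur in Gsta1. Their promoters, from 250 bases before to 50 bases after the RefSeq start (GRCm38.p6), are printed to show how alike the 2 copies are, with capitals for the only bases that differ or have no partner within the stretch that aligns.
Gsta1, chr9:78230419-78230718, plus strand: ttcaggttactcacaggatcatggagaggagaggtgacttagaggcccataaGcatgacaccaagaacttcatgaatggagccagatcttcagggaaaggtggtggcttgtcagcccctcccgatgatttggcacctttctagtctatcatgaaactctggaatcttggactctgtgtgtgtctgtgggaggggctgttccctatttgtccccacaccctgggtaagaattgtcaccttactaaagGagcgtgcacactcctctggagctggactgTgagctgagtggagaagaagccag
Gm3776, chr9:78256879-78257178, plus strand: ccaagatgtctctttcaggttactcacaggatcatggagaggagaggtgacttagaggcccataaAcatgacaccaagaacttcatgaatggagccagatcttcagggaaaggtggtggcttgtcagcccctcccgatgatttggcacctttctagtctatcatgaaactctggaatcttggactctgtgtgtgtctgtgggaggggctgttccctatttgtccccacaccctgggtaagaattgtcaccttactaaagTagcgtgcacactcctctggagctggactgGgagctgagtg
Over 287 aligned bases the pair differed at 3, an identity of 99%.

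Gstp1 (chr19:4035407-4037985, minus strand) lies 2.3 kb from Gstp2 (chr19:4040285-4046023, minus strand), a second pi-class gene. Of the windows at the 3′ end of Gstp1, 67.3% also occur in Gstp2, and the gene listed as Gstp-ps holds some of them too. The promoters of these 2 genes are printed because their levels moved the same way between libraries, as described below, and capitals again mark bases that differ or are unpaired.
Gstp1, chr19:4037863-4038162, minus strand: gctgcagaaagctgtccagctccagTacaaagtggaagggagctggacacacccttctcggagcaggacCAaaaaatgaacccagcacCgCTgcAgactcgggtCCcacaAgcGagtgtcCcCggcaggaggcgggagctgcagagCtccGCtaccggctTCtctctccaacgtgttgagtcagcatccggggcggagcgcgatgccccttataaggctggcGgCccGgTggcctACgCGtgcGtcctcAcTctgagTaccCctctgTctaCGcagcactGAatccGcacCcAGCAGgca
Gstp2, chr19:4042172-4042471, minus strand: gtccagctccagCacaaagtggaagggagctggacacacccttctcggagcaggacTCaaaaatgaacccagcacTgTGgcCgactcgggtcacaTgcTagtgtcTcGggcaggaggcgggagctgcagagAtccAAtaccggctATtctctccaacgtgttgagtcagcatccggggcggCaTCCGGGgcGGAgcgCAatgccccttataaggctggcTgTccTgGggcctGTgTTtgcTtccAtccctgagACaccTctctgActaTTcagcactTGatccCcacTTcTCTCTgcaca
Of 283 aligned bases 244 were the same (86.2%), with 19 more bases unpaired. The other 7 members had no window of their last 500 bases in another gene. The core of the antioxidant response element, searched as TGACNNNGC on both strands, was present in 1 of the 10 promoter windows of the 8 members that have one, in Mgst1, and in 12.4% of all 32851 promoter windows. Only this form was searched. The Gstp1 and Gstp2 promoters above both hold TGAGTCAGC, which has G where that form has C.

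Most members had their highest level in enterocytes. Among the 7 classes, 9 of 10 members were highest in an enterocyte class by the level over the 3 libraries, and Gsta4 was the exception. With the T cell-like, enteroendocrine-like and tuft-like classes taken in, 7 of 10 were, since Mgst3 was higher in tuft-like and Gclc in enteroendocrine-like cells. Of the 7 classes 3 are enterocyte classes. The share of all genes highest in them is not given, so these counts only describe the members. Lowest in Paneth-like cells, the class led by defensin genes, were 6 members, or 4 when levels were scaled without ribosomal protein, mitochondrial and defensin genes. For Gstm3 and Gstp1, among these 6, the Paneth-like level overlapped that of the next class over the libraries. The share of all genes lowest there is not given either. A level here is the number of UMIs of a gene per 10000 UMIs of its class; since 3′ counting does not depend on transcript length but capture differs between genes, levels are compared between classes and libraries rather than between genes.

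**Figure D1:**
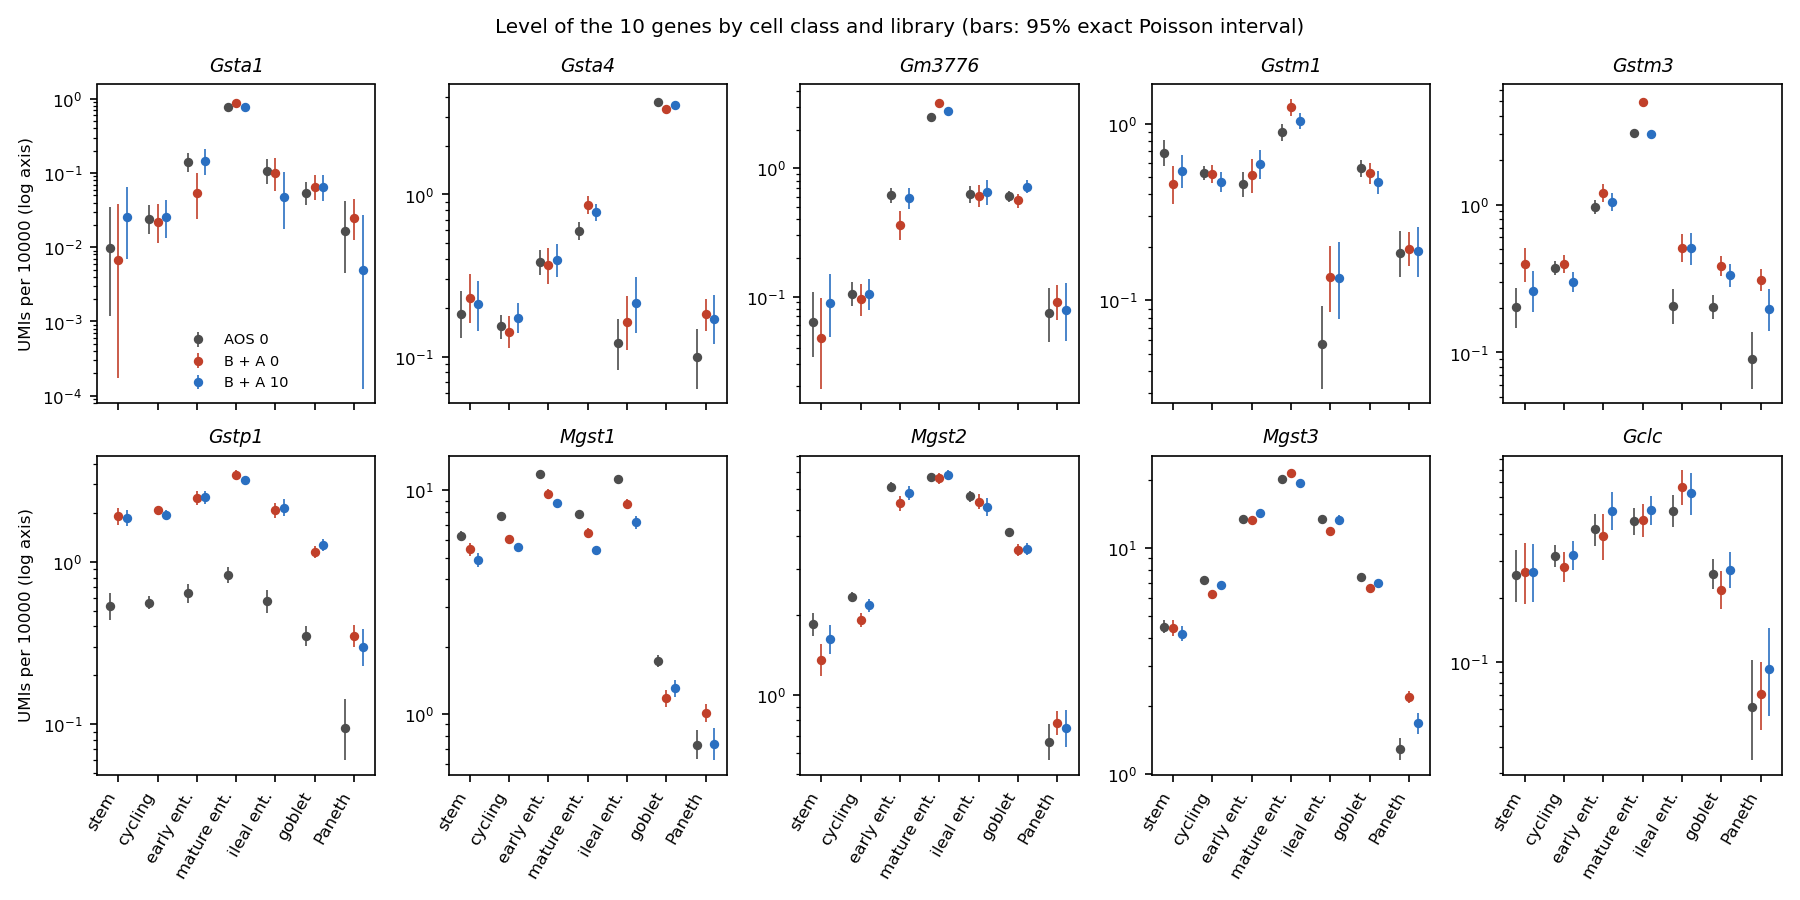
Level of each of the 10 genes (UMIs per 10000, log axis) in the 7 cell classes, with 1 point per library and bars for the 95% exact Poisson interval. Gstp1 of AOS 0 lies below both busulfan libraries in every class, and Gsta4 peaks in goblet-like cells where the other alpha-class genes peak in mature enterocyte-like cells.

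Among the alpha-class genes, Gsta1 was highest in mature enterocyte-like cells. There it had 0.779, 0.877 and 0.784 UMIs per 10000 in AOS 0, then B + A 0, then B + A 10, which was 6.71-fold above early enterocyte-like cells, the next class. In stem-like cells it was at 0.00969, 0.0068 and 0.0254, below the T cell-like cells at 0.0922, 0.0234 and 0.184 in 3 of 3 libraries. T cell-like cells also held more Apoa1, so this does not decide whether stem-like cells make Gsta1. Stem-like Gsta1 was 0.133 to 0.504 times what mature enterocyte RNA would bring in the proportion of Apoa1. It is not told apart from background. Early enterocyte-like cells had 0.141, 0.0533 and 0.145, which was 6.79, 0.992 and 2.65 times what mature enterocyte RNA would bring in the proportion of their Apoa1. Gsta1 was also found in clusters without a name: the one led by Ms4a18, Sis and Il18 had 0.278 UMIs per 10000 over the 3 libraries (193 UMIs), and the one led by Wfdc18, Sst and Clu had 0.412 on 20 UMIs.

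Gm3776 was also highest in mature enterocyte-like cells, by 4.47-fold over the ileal class, which came next. In mature enterocyte-like cells it had 2.53, 3.25 and 2.77 UMIs per 10000 in AOS 0, then B + A 0, then B + A 10, and in stem-like cells 0.063, 0.0476 and 0.089. T cell-like cells held 0.338, 0.468 and 0.609. After each cell was thinned to 1000 UMIs, 18.2% of mature enterocyte-like cells (95% exact binomial interval 16.6% to 19.8%) and 0.977% of stem-like cells (0.448% to 1.85%) had a UMI of Gm3776, against 3.79% of T cell-like cells (1.97% to 6.52%). Without thinning these shares were 44.9%, 3.47% and 17.0%, at median depths of 3897, 4987 and 4248 UMIs. The stem-like share was below the T cell-like share, but T cell-like cells also held more Apoa1. Stem-like Gm3776 was 0.251 to 1.01 times what mature enterocyte RNA would bring in the proportion of Apoa1. It is not told apart from background.

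Within the mature enterocyte-like class, both genes were highest in the cluster led by S100g, Reg1 and Slc40a1, genes of calcium and iron uptake and a secreted lectin. That cluster of 350 cells had 2.10 UMIs per 10000 of Gsta1 and 8.46 of Gm3776, while the cluster led by Slc5a12 and Dnase1 had 0.277 and 1.15. The members had been left out of the genes used for clustering, so they did not define it.

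Gsta4, an alpha-class enzyme known for conjugating the lipid peroxidation product 4-hydroxynonenal, was highest in goblet-like cells among the 7 classes. Goblet-like cells had 3.72, 3.37 and 3.56 UMIs per 10000 in AOS 0, then B + A 0, then B + A 10, which was 4.89-fold above mature enterocyte-like cells at 0.596, 0.866 and 0.775. T cell-like cells were at 0.231, 0.14 and 0.148. The goblet cluster led by Ido1, Clca1 and S100a6 held most of it, with 7.65 UMIs per 10000 (Poisson interval 7.39 to 7.93), against 1.92 in the cluster led by Agr2, Rep15 and Guca2a and 1.99 in the one led by Muc2, Fcgbp and Fer1l6. The mature enterocyte cluster led by S100g was above those 2 goblet clusters, at 2.64 (2.39 to 2.92). An unnamed cluster led by Ccl5, Gzma and Cd3g, whose second list was that of goblet cells, held 3.13. Thinned to 1000 UMIs, 26.0% of goblet-like cells (24.3% to 27.8%) held a Gsta4 UMI and 1.58% of T cell-like cells (0.514% to 3.64%) did. The unthinned shares were 56.3% and 8.20%. The 2 intervals lay far apart.

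**Figure D2:**
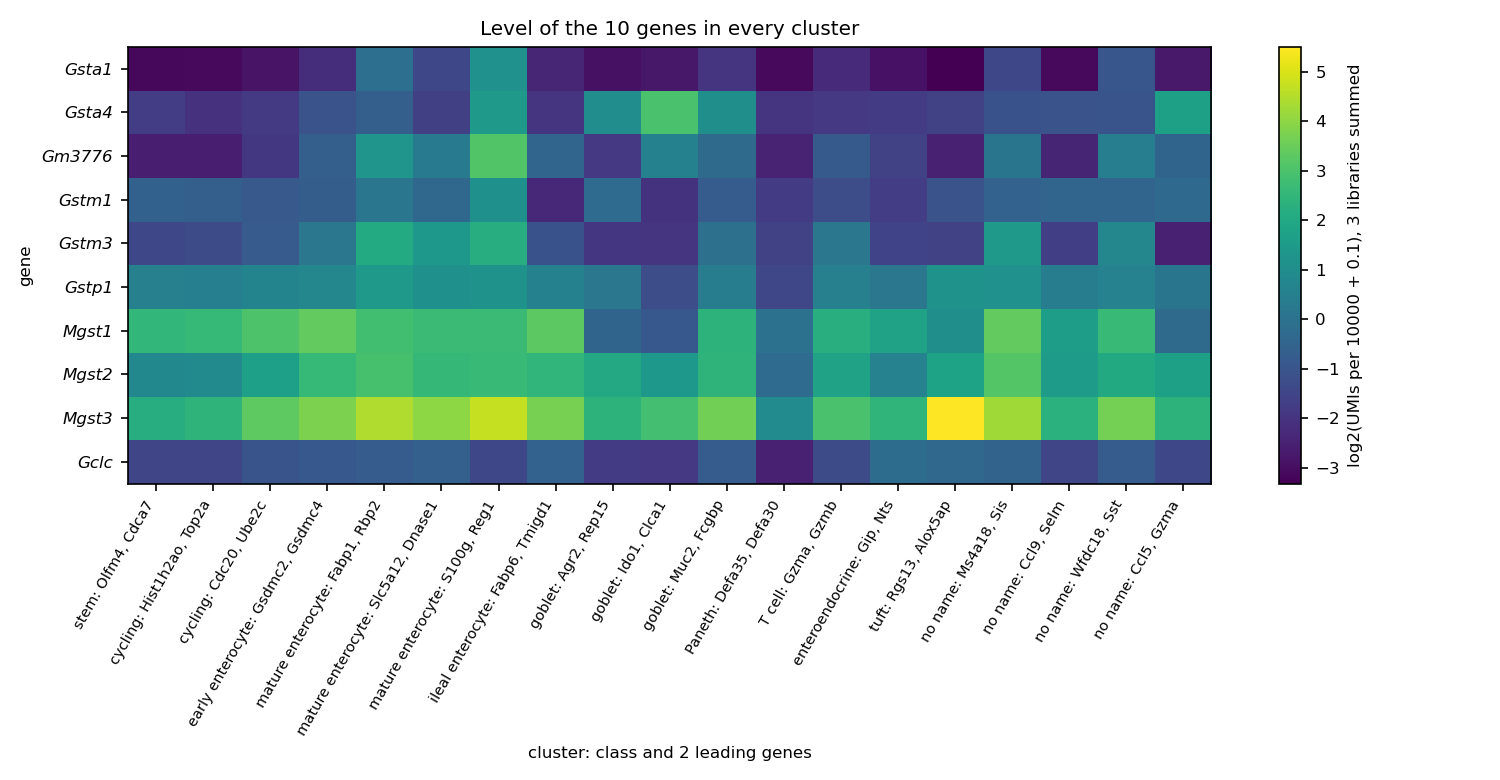
Level of each gene, as log2(UMIs per 10000 + 0.1) of the 3 libraries summed, in each of the 19 clusters of cells. Gsta4 is brightest in the goblet cluster led by Ido1 and Clca1, Gsta1 and Gm3776 in the mature enterocyte cluster led by S100g and Reg1, and Mgst3 in the tuft cluster.

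The mu-class genes differed in where they were found. Gstm3 (chr3:107963696-107969283) was mainly a mature enterocyte gene, with 3.03, 4.92 and 3.01 UMIs per 10000 in AOS 0, then B + A 0, then B + A 10, followed by 0.965, 1.19 and 1.05 in early enterocyte-like cells. Gstm1 (chr3:108012255-108017973) was present from stem-like cells (0.683, 0.456 and 0.54) to mature enterocyte-like cells (0.892, 1.24 and 1.04) and was lowest in ileal enterocyte-like cells (0.0566, 0.135 and 0.134). Ileal enterocytes, which express the bile acid carrier Fabp6, thus had 10.6-fold less Gstm1 than mature enterocyte-like cells over the 3 libraries. That ileal level was also below the T cell-like level of 0.246, 0.351 and 0.406.

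The microsomal genes were the most widely found of the members. Mgst3, a glutathione-dependent peroxidase and transferase, had 20.2, 21.4 and 19.4 UMIs per 10000 in mature enterocyte-like cells of AOS 0, then B + A 0, then B + A 10, 13.4, 13.3 and 14.3 in early enterocyte-like cells and 4.49, 4.43 and 4.19 in stem-like cells. Mgst2 had the same order, from 1.85, 1.36 and 1.63 in stem-like to 6.67, 6.61 and 6.79 in mature enterocyte-like cells. T cell-like cells held 7.78 of Mgst3 and 3.26 of Mgst2 over the libraries, above the stem-like cells. A second measure was the level that stem-like cells would hold if their Mgst3 had come along with Apoa1, in the proportion found in mature enterocyte-like cells. The measured level was 3.37 to 8.97 times that over the 3 libraries, and for Mgst2 3.53 to 11.2 times.

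Mgst1 had a different order, with more in early and ileal enterocyte-like cells than in mature enterocyte-like cells of the same library. Early enterocyte-like cells had 11.9, 9.62 and 8.74 UMIs per 10000 in AOS 0, then B + A 0, then B + A 10, ileal enterocyte-like cells 11.2, 8.65 and 7.20, and mature enterocyte-like cells 7.86, 6.46 and 5.40. Neighbouring classes in this order overlapped over the libraries from early enterocyte-like down to stem-like cells, so their order is not firm. Stem-like cells were already at 6.26, 5.44 and 4.86, which was 14 to 32.1 times what Apoa1 would carry. T cell-like cells held 5.18, 4.23 and 4.04 of Mgst1, less than the stem-like cells of the same library, and 1.91 to 2.99 times what Apoa1 would carry. Goblet-like cells held 1.73, 1.18 and 1.30 and Paneth-like cells 0.73, 1.01 and 0.735. Within goblet-like cells, most Mgst1 lay in the cluster led by Muc2, Fcgbp and Fer1l6 (5.09 UMIs per 10000), with 58.3% of its cells among those with the highest doublet scores, against 0.61 and 0.435 in the other 2 goblet clusters.

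Tuft cells, rare chemosensory cells that make leukotrienes and prostaglandins, stood out for Mgst3. The tuft-like cluster had only 30 cells, with 11, 6 and 13 from AOS 0, then B + A 0, then B + A 10, and 48.2, 40 and 44.9 UMIs of Mgst3 per 10000. This was above every other class in each library. Of the 30 cells, 29 held a Mgst3 UMI after thinning (96.7%, interval 82.8% to 99.9%), against 47.6% of T cell-like cells, and the enteroendocrine-like class, with 156 cells, was at 5.42.

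Gclc, which limits glutathione synthesis, was low everywhere. Among the 7 classes its highest was 7.97-fold above its lowest, a smaller span than that of each transferase. Ileal enterocyte-like cells had 0.517, 0.663 and 0.624 UMIs per 10000 in AOS 0, then B + A 0, then B + A 10, mature enterocyte-like cells 0.46, 0.468 and 0.519, and stem-like cells 0.257, 0.265 and 0.267. The ileal, mature and early classes overlapped over the libraries. Enteroendocrine-like cells, which are not among the 7 classes, were at 0.56, 0.69 and 1.24.

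Over the 21 points of class and library, the log2 levels of 9296 genes were compared with each member, as a description of patterns that share depth and cells. Gsta1 was most like the fructose transporter Slc2a5 (Pearson r 0.969) and the retinol dehydrogenase Rdh7 (0.966), Gm3776 like Mical1 (0.969) and Fmo5 (0.962), and Gsta4 like Edem3 (0.933) and Yipf6 (0.928). Gstm1 was most like Fam13a and Onecut2 (both 0.929), and Gstm3 like Vwce (0.962) and Ms4a10 (0.959). Mgst1 was most like Cth, an enzyme that makes cysteine (0.986), and Fdx1 (0.985), Mgst2 like Pfkfb2 (0.986) and Atp6v0a2 (0.981), Mgst3 like Plac8 (0.986) and Arhgef5 (0.983), and Gclc like the desmosomal genes Dsc2 (0.982) and Dsg2 (0.979). Gstp1 was most like Gstp2, at 0.912, and then Gm3244, at 0.893. No other member had a near copy of itself among its most alike genes.

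The first comparison between libraries, B + A 0 over AOS 0, asks what differed after busulfan. One member, Gstp1, was higher in B + A 0 in the 6 classes with enough UMIs and by more than any other there. Mature enterocyte-like cells had 0.83 Gstp1 UMIs per 10000 in AOS 0 and 3.42 in B + A 0, a ratio of 4.12 (95% counting interval 3.63 to 4.69). In stem-like cells the levels were 0.533 and 1.90 and the ratio 3.57 (2.86 to 4.50). Because the libraries lay so far apart, all 6 pairs of neighbouring classes in the order of Gstp1 levels overlapped over the libraries. Both libraries that had received busulfan lay well above AOS 0. As each library is a pool of 6 outbred mice, a difference between the pools in Gstp1 and Gstp2 alleles cannot be told apart from the treatment.

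The other classes were alike in this. Gstp1 had 0.56 and 2.07 UMIs per 10000 in cycling-like cells of AOS 0 and B + A 0, 0.642 and 2.48 in early enterocyte-like, 0.573 and 2.08 in ileal enterocyte-like and 0.351 and 1.15 in goblet-like cells, with ratios of 3.70, 3.86, 3.63 and 3.29. Paneth-like cells, with fewer than 300 Gstp1 UMIs, were at 0.0949 and 0.351, a ratio of 3.70 (2.38 to 6.02). The Paneth-like level of B + A 0 was 1.09 times what enterocyte RNA would bring in the proportion of Apoa1, against 5.25 times in AOS 0, and in thinned cells the direction turned, with a ratio of 0.39 on few UMIs. T cell-like cells were at 0.553 and 1.87, a ratio of 3.38 (2.26 to 5.16). Of the 19 clusters, 16 had at least 50 Gstp1 UMIs over the 2 libraries, and their ratios ran from 2.55 to 5.30, with all 16 intervals above 1.

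Few genes had a larger ratio than Gstp1. Among genes with at least 300 UMIs, it ranked 2 of 2792 from the top in mature enterocyte-like cells, 2 of 5099 in cycling-like, 2 of 1648 in stem-like, 3 of 2269 in early enterocyte-like, 1 of 1816 in ileal enterocyte-like and 6 of 3035 in goblet-like cells. Thinned to 1000 UMIs, 7.96% of mature enterocyte-like cells of AOS 0 held a Gstp1 UMI (6.09% to 10.2%), against 25.6% of B + A 0 (21.9% to 29.6%). Their unthinned shares were 32.8% and 74.8%. In T cell-like cells the thinned shares were 2.94% and 17.5%.

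**Figure D3:**
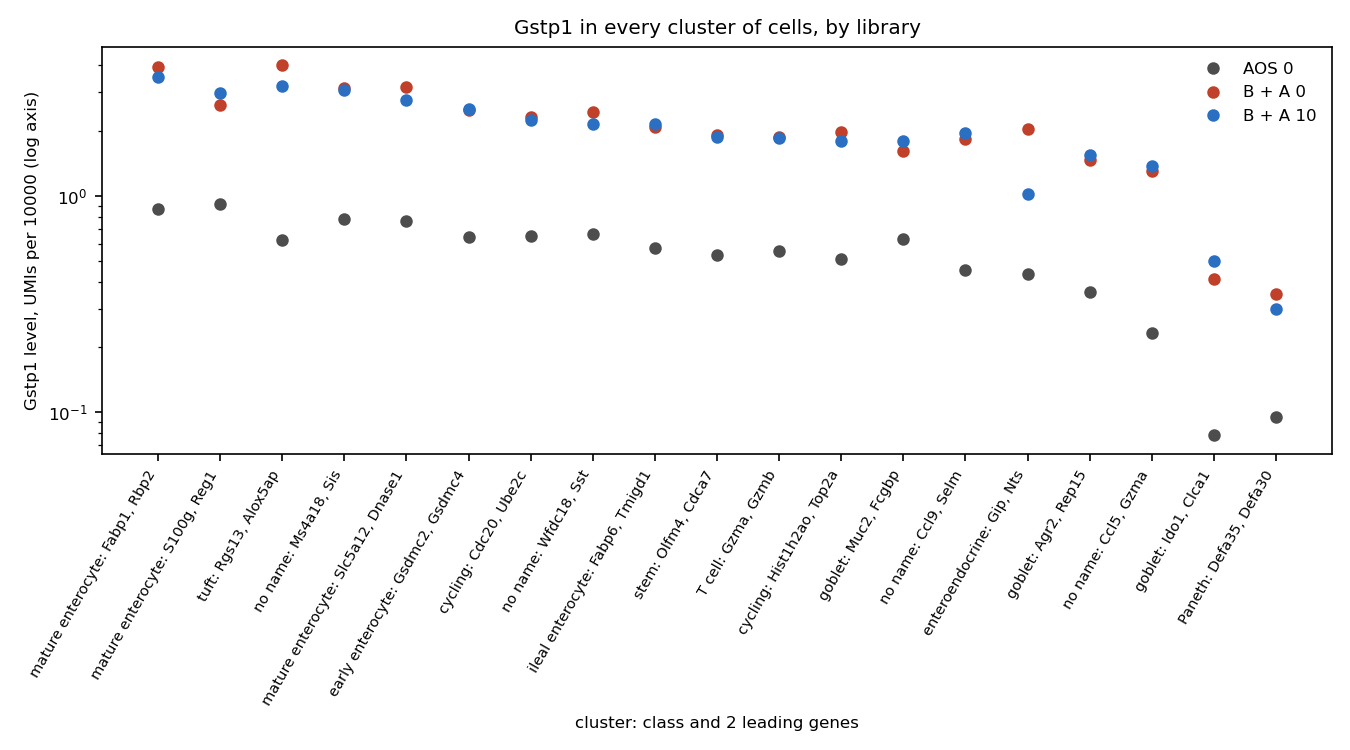
Level of Gstp1 (UMIs per 10000, log axis) in each of the 19 clusters, ordered by level, with 1 point per library. The AOS 0 point is the lowest of the 3 in every cluster, and B + A 0 and B + A 10 lie close together except in enteroendocrine-like cells.

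Its neighbour Gstp2 moved the same way by less. In mature enterocyte-like cells Gstp2 had 0.334, 0.557 and 0.668 UMIs per 10000 in AOS 0, then B + A 0, then B + A 10, a ratio of B + A 0 over AOS 0 of 1.67 (1.31 to 2.13). In cycling-like cells its ratio was 1.54 (1.23 to 1.92). UMIs of both genes were also added, so that a split of the counted UMIs between them does not matter. The ratio of these sums was 3.42 (3.06 to 3.82) in mature enterocyte-like, 3.15 in cycling-like, 3.24 in stem-like and 2.69 in goblet-like cells. Cell Ranger counts only reads that map to 1 gene, so reads shared by the copies are not among these UMIs.

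A gene with at least 300 UMIs is called past the fold here if it was at least 25% higher, or at least 20% lower, in one library than in the other. Among mature enterocyte-like cells 5 of 10 members were past it and higher in B + A 0, where 16.7% of 2792 genes were past it in either direction. The median log2 ratio was 0.27 over the members and -0.02 over all genes. Gstm3 went from 3.03 to 4.92 UMIs per 10000, a ratio of 1.62 (1.497 to 1.755) and rank 38 of 2792. Gsta4 had a ratio of 1.45 (1.21 to 1.75), Gstm1 of 1.39 (1.19 to 1.62) and Gm3776 of 1.285 (1.17 to 1.41). Gsta1 was at 1.13 (0.946 to 1.34), within counting error. With UMIs of Gsta1 and Gm3776 added, as for the Gstp pair, the ratio was 1.248 (1.151 to 1.353), which is under the fold.

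**Figure D4:**
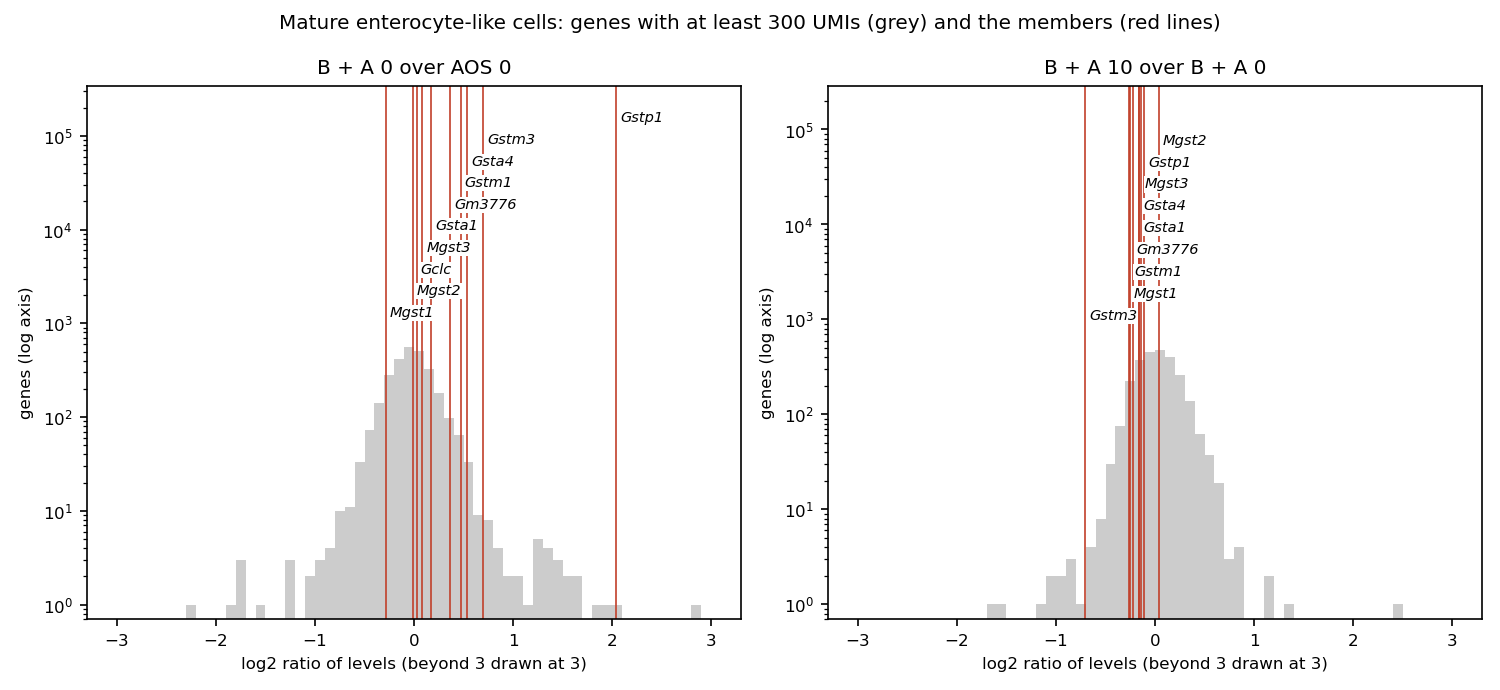
Histograms of the log2 ratio of all genes with at least 300 UMIs in mature enterocyte-like cells (grey, log count axis) with red lines for the members, for B + A 0 over AOS 0 (left) and B + A 10 over B + A 0 (right). Gstp1 stands at 2.04 on the left and Gstm3 at -0.71 on the right, each near an end of its histogram.

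The clusters inside the class moved with these values. The S100g cluster made up 11.45%, 16.3% and 16.2% of mature enterocyte-like cells in AOS 0, then B + A 0, then B + A 10, and it is the cluster richest in Gsta1, Gsta4, Gm3776 and Gstm1. With the 3 clusters given the same weight in every library, an alternative added after seeing the data, the ratio of B + A 0 over AOS 0 was 1.21 for Gsta4 and 1.13 for Gm3776, both under the fold, while Gstm3 stayed at 1.605, Gstm1 at 1.30 and Gstp1 at 4.13. Gstm3 was higher in each of the 3 clusters, by 1.41 (1.27 to 1.58), 2.29 (1.96 to 2.68) and 1.34 (1.12 to 1.62). Gstm1 was higher by 1.42 and 1.89 in the clusters led by Fabp1 and by Slc5a12, and at 0.832 (0.618 to 1.12) in the S100g cluster.

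Outside mature enterocyte-like and Paneth-like cells, Gstp1 was the only member with 300 UMIs past the fold on the higher side, and Mgst1, Mgst2 and Mgst3 had ratios below 1. In cycling-like cells 2 of 7 members with 300 UMIs were past the fold (14.5% of all genes), Gstp1 higher and Mgst1 lower, at 7.70 and 6.04 UMIs per 10000 in AOS 0 and B + A 0, a ratio of 0.785 (0.753 to 0.818). This Mgst1 ratio was past the fold in 6 of 11 alternatives, from 0.77 to 0.829. In ileal enterocyte-like cells 2 of 4 were (15.6% of all genes), with Mgst1 at 11.2 and 8.65, a ratio of 0.77 (0.723 to 0.82). In stem-like cells 2 of 4 were (11.8%), with Mgst2 at 1.85 and 1.36, a ratio of 0.735 (0.616 to 0.874), and past the fold in 8 of 11 alternatives, up to 0.902 at a resolution of 1.5. In early enterocyte-like cells 1 of 5 was (13.8%), namely Gstp1.

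Members short of 300 UMIs also differed by more than counting error. In early enterocyte-like cells Gm3776 had 0.615, 0.361 and 0.584 UMIs per 10000 in AOS 0, then B + A 0, then B + A 10, so B + A 0 was the lowest. With Gsta1 and Gm3776 added, B + A 0 was at 0.548 of AOS 0 (0.414 to 0.717) and B + A 10 at 1.76 of B + A 0 (1.31 to 2.38), the other way from mature enterocyte-like cells. After thinning, Gm3776 alone was at 0.943 and 0.955. Gstm3 was at 1.94 (1.28 to 2.96) for B + A 0 over AOS 0 in stem-like cells, 2.46 (1.74 to 3.52) in ileal enterocyte-like cells and 1.90 (1.49 to 2.42) in goblet-like cells. Its levels were 0.832 to 1.23 times what Apoa1 would carry in goblet-like cells and 1.35 to 2.71 times in stem-like cells. In ileal enterocyte-like cells they were 0.338 to 0.515 times that. Those cells are enterocytes and held 53.1, 62.6 and 68.4 UMIs of Apoa1 per 10000 in the same order of libraries. There the measure cannot separate carried RNA from their own. T cell-like cells held 0.676, 1.66 and 0.923 of Gstm3, or 0.984 to 1.01 times what Apoa1 would carry.

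Goblet-like cells had 2 of 7 members past the fold (11.4% of all genes), Gstp1 higher and Mgst1 lower, with Mgst1 at 1.73 and 1.18 UMIs per 10000. Its ratio of 0.682 (0.612 to 0.76) was close to that of the cluster with high doublet scores, 0.692. Mgst1 was at 1.28 (1.01 to 1.63) and 1.27 (0.873 to 1.86) in the other 2 goblet clusters. The direction of Mgst1 in goblet-like cells was thus not the same within the class, and it turned to 1.34 at a resolution of 0.4. In Paneth-like cells 2 of 3 members were past the fold and higher, Mgst1 at 1.39 and Mgst3 at 1.7 (1.495 to 1.937), but 42.4% of all genes were past it there and the median log2 ratio of all genes was 0.22.

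**Figure D5:**
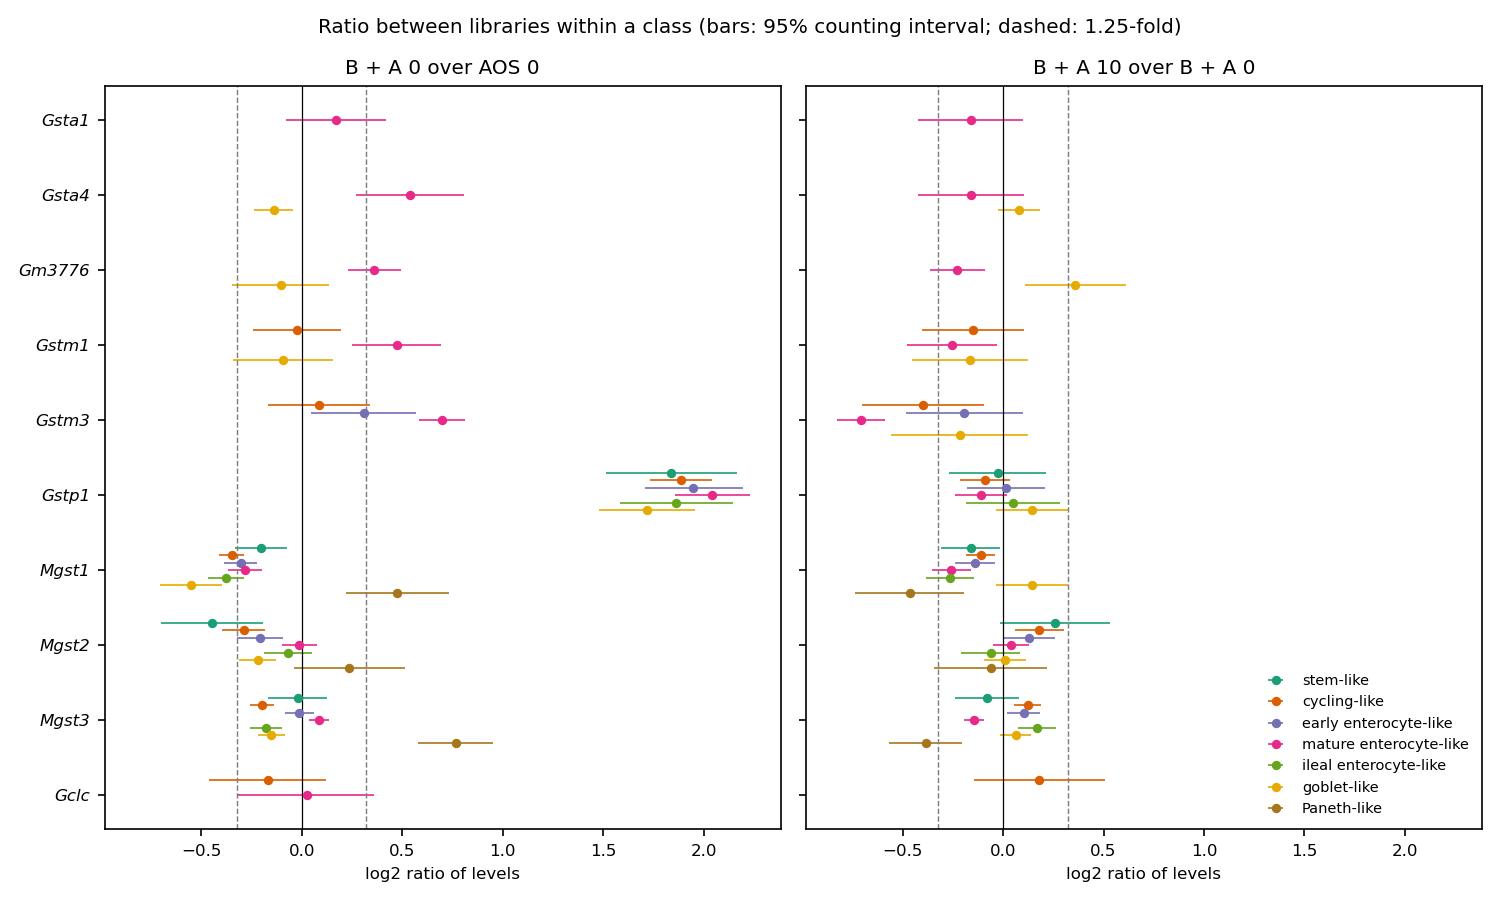
Log2 ratio of each gene between libraries within a class, for class and gene pairs with at least 300 UMIs, with bars for the 95% counting interval and dashed lines at the fold used. On the left Gstp1 lies between 1.72 and 2.04 in 6 classes and Mgst1 lies below 0 in all but Paneth-like cells. On the right Gstp1 lies near 0 and Gstm3 below it.

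The second comparison, B + A 10 over B + A 0, asks what differed when AOS followed busulfan. Gstp1 differed by no more than counting error in the 6 classes with enough UMIs. Mature enterocyte-like cells had 3.42 Gstp1 UMIs per 10000 in B + A 0 and 3.17 in B + A 10, a ratio of 0.926 (0.846 to 1.01), and over the 6 classes with 300 UMIs the ratios ran from 0.926 to 1.11. All 6 intervals took in 1. With UMIs of Gstp2 added, goblet-like cells were at 1.169 (1.042 to 1.311), and the intervals of the other classes took in 1. Gstp2 alone, short of 300 UMIs, was at 1.566 (1.166 to 2.11) in goblet-like cells.

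Gstm3 was the member that differed most between the busulfan libraries where members had at least 300 UMIs. Its ratio was below 1 in 7 of 7 classes, but the interval took in 1 in the stem-like, early enterocyte-like, ileal enterocyte-like and goblet-like classes, at ratios of 0.661, 0.875, 0.99 and 0.861. Mature enterocyte-like cells had 3.03, 4.92 and 3.01 UMIs per 10000 in AOS 0, then B + A 0, then B + A 10, so that B + A 10 was at 0.612 of B + A 0 (0.563 to 0.665) and at 0.992 of AOS 0 (0.911 to 1.08). This was the only member of 9 past the fold in that class, where 12.9% of 2597 genes were, and it ranked 11 of 2597 from the lowest ratio. The medians of log2 ratios were -0.16 over the members and 0.02 over all genes. Within the 3 clusters the ratio was 0.681, 0.536 and 0.525.

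In cycling-like cells Gstm3 was also the 1 member of 7 past the fold, with 8.23% of all genes past it, at 0.397 and 0.301 UMIs per 10000, a ratio of 0.759 (0.614 to 0.938). These levels were 1.69 and 1.79 times what Apoa1 would carry and below the T cell-like levels given above, which differed in the same direction, and the ratio was 0.83 without joining the libraries. Stem-like cells had 0 of 4 members past it (9.96% of all genes), early enterocyte-like cells 0 of 5 (9.96%) and ileal enterocyte-like cells 0 of 4 (13.4%). In goblet-like cells 1 of 8 members was past it (13% of all genes), Gm3776 at 0.562 and 0.721 UMIs per 10000, a ratio of 1.28 (1.08 to 1.53). In Paneth-like cells 2 of 3 were (28.5% of all genes), Mgst1 at 0.726 and Mgst3 at 0.766, where the median log2 ratio of all genes was -0.18.

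Mgst1 was lower in B + A 10 than in B + A 0 in 6 of 7 classes, short of the fold in all but Paneth-like cells, and goblet-like cells were at 1.106 (0.977 to 1.253). Its ratio was 0.836 (0.782 to 0.894) in mature enterocyte-like, 0.833 (0.766 to 0.905) in ileal enterocyte-like, 0.908 (0.848 to 0.974) in early enterocyte-like and 0.926 (0.88 to 0.974) in cycling-like cells. Mgst2 and Mgst3 had ratios from 0.904 to 1.20 outside Paneth-like cells, with no common direction. Gclc had enough UMIs in cycling-like cells only, at 0.282 and 0.319 UMIs per 10000, a ratio of 1.13 (0.903 to 1.42).

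The third comparison, B + A 10 over AOS 0, shares its libraries with the first 2 and is given for the size of the total difference. Gstp1 was higher in B + A 10 in all 6 classes with enough UMIs, by 3.48 to 3.90, and Mgst1 lower in 6 of 7, with ratios of 0.642 to 0.777. Gstp1 and Mgst1 were the members past the fold in stem-like cells (2 of 4, with 28.6% of all genes past it), cycling-like cells (2 of 7, 27.3%), early enterocyte-like cells (2 of 6, 27%), ileal enterocyte-like cells (2 of 4, 29.6%) and goblet-like cells (2 of 7, 26.8%). Of mature enterocyte-like members 3 of 10 were (21.3%), with Gsta4 at 1.30 (1.08 to 1.56) beside them. In Paneth-like cells Mgst3 was the 1 of 3 past it, at 1.30 (1.11 to 1.52), with 37% of all genes.

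The other genes of the pathway were a list of 81, of which 78 were in the table, in 6 groups. Of these, 39 had at least 300 UMIs in mature enterocyte-like cells for B + A 0 over AOS 0, and 3 were higher and 1 lower past the fold. For B + A 10 over B + A 0, 1 of 38 was higher and 2 were lower. All genes of the class had 16.7% and 12.9% past it, as given above. In cycling-like cells 3 of 43 were higher and 6 lower in the first comparison, and 4 of 38 higher and 1 lower in the second.

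Of the genes of glutathione synthesis and NRF2, those past the fold in 2 or more classes of a comparison were Gclm, Cth and Nfe2l2, which were lower, and Ugdh, which was higher. Outside mature enterocyte-like and Paneth-like cells, more of all genes were lower than higher past the fold for B + A 10 over AOS 0. Cycling-like cells had 1007 lower and 363 higher. In mature enterocyte-like cells 284 were lower and 356 higher, and in Paneth-like cells 71 and 136. Gclm, the regulatory subunit that pairs with Gclc, had 1.58, 1.34 and 1.06 UMIs per 10000 in mature enterocyte-like cells of AOS 0, then B + A 0, then B + A 10, with B + A 10 at 0.67 of AOS 0 (0.586 to 0.765), and it was past the fold and lower in 5 of 5 classes for B + A 10 over AOS 0. Slc3a2, a subunit of amino acid carriers, had ratios of 0.91 to 1.16 in all 3 comparisons outside Paneth-like cells. Cth was lower past the fold in 2 of 3 classes in that comparison, at 0.685 and 0.746. Nfe2l2, the gene of the transcription factor NRF2 that drives many transferase genes, had 3.46, 3.03 and 2.67 in mature enterocyte-like cells, and B + A 10 was at 0.772 of AOS 0 (0.708 to 0.841).

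Among transferases outside the members, Gsto1 was the one with the most UMIs and had ratios of 0.877 to 1.10 for B + A 0 over AOS 0 outside Paneth-like cells. Gstt2, the next, was past the fold and lower in 3 of 5 classes for B + A 10 over AOS 0. Gstm2, a mu-class gene that lies between Gstm1 and Gstm3, had 0.288, 0.264 and 0.696 UMIs per 10000 in mature enterocyte-like cells of AOS 0, then B + A 0, then B + A 10, so that B + A 10 was 2.42-fold above AOS 0 (1.92 to 3.06), and it was named after its values were seen. Between B + A 0 and B + A 10, Gstm2 was higher in the latter where Gstm3 was lower.

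Peroxidases and other genes that use glutathione or NADPH differed from gene to gene. Gpx2, the glutathione peroxidase of the crypt, had 17.5, 17.1 and 13.9 UMIs per 10000 in stem-like cells, with B + A 10 at 0.796 of AOS 0 (0.754 to 0.839), and Gpx1 was at 1.28 for B + A 0 over AOS 0 in mature enterocyte-like cells. Txn1, Fth1 and Ftl1 had ratios from 0.834 to 1.16 in all 3 comparisons outside Paneth-like cells. Esd, which hydrolyses S-formylglutathione, was lower past the fold in 6 of 6 classes for B + A 10 over AOS 0, at ratios of 0.632 to 0.777. In the same comparison Glo1, of the glyoxalase pathway, was lower past the fold in 5 of 7 classes (0.719 to 0.793), Taldo1, of the pentose phosphate pathway, in 5 of 7 (0.761 to 0.795), Hagh, which frees glutathione in the glyoxalase pathway, in 4 of 5 (0.717 to 0.795) and the glutaredoxin Glrx in 2 of 5 (0.792 and 0.798). All genes had 21.3% to 29.6% past the fold in the classes other than Paneth-like cells.

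Of the enzymes that break glutathione conjugates down, Ggt1, Dpep1 and Anpep sit on the cell surface and Cndp2 is a dipeptidase of the cytosol. Ggt1, which removes glutamate from conjugates, had 5.64, 5.83 and 5.85 UMIs per 10000 in mature enterocyte-like cells but 0.181, 0.373 and 0.519 in cycling-like cells, a ratio of B + A 0 over AOS 0 of 2.06 (1.67 to 2.55). Apoa1 in the same cycling-like cells was at 4.41, 10.3 and 11.7, and its part in this was not tested. For B + A 10 over B + A 0, Anpep was at 1.27 to 1.58 in stem-like, cycling-like, early enterocyte-like and goblet-like cells. It was short of the fold in the mature and ileal enterocyte-like classes. In the 4 classes 8.23% to 13% of all genes were past the fold. Apoa1 was also higher in B + A 10 than in B + A 0 in each of them, and its part was not tested. Cndp2 was at 1.33 in cycling-like cells for B + A 0 over AOS 0. Dpep1, a dipeptidase, was lower in B + A 0 than in AOS 0 in the 3 enterocyte classes, at 0.763 to 0.775. Ugdh, which makes UDP-glucuronic acid, was higher in B + A 10 than in B + A 0 in 5 of 5 classes, at 1.27 to 1.49.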

How the data were processed

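The submitters' processing notes name Cell Ranger 2.2.0 and mm10. Per the methods, the authors kept cells with at least 200 genes and genes seen in at least 3 cells, and log-normalized the counts in Seurat. Each deposited value is a natural log, taken of UMIs scaled to 10000 per cell with 1 added. They were turned back into UMIs, and 100% of 24333763 values above 0 came out whole within 0.01 UMI. Depth ran from 23003083 to 35258551 UMIs per library, and precision follows it.

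Libraries were joined on 20 dimensions from 1978 variable genes, with the members and the pathway list left out, and clustered at resolution 0.8 in Seurat 5.3.0 (R 4.3.3). A cluster took the marker list with the highest mean standardized level. It also needed 1 marker among its 10 leading genes, and no other lineage's list, the cycling list aside, above a score of 1. This naming rule was chosen after the clusters were seen. Of 19 clusters 4 had no name. Doublets were kept, since Scrublet's automatic threshold marked 0.119% of cells.

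UMIs were summed by class and library. Intervals are exact Poisson for levels and exact binomial for ratios and shares, at 95%, and cover counting error only. Past the fold means at least 25% higher or 20% lower, with at least 300 UMIs in both libraries together. With 1 library per group no test was made. The members and the gene lists were chosen with earlier results of these data known. The text names all members, the 2 pathway genes of each group with the most UMIs, those past the fold in 2 or more classes the same way, and the 2 genes most like each member. Equal cluster weights and leaving out cells with shared barcodes were alternatives added after seeing the data. The ratio and its interval were tested on simulated data. Gene coordinates are from GENCODE vM21 on GRCm38, the assembly of mm10, and promoters from RefSeq. Versions were numpy 2.4.6, pandas 2.3.3 and scipy 1.17.1 under Python 3.11.15.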

Additional observations from a re-analysis of the deposited data

Results flagged for a closer look

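The microsomal transferase Mgst1 differed between classes under B + A 0 over AOS 0: its ratio was 0.785 in cycling-like, 0.77 in ileal enterocyte-like and 0.682 in goblet-like cells, and 1.39 in Paneth-like cells. The difference between classes was not tested, since each group is 1 library. In Paneth-like cells the median log2 ratio of all genes was 0.22, and in goblet-like cells the ratio was above 1 in 2 of the 3 clusters. Groups of 1 library allow no search for outlying samples.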

How the results depend on the processing

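Of 1532 ratios recomputed under 11 alternatives, 1436 stayed inside the counting interval of the reported value, 93 left it, 59 of them after thinning, and 3 turned. The 3 were Mgst1 in goblet-like cells for B + A 0 over AOS 0, at 1.31 without joining the libraries, 1.34 at resolution 0.4 and 1.24 with the members and pathway genes kept among the clustering genes. Gstp1 kept its ratio of B + A 0 over AOS 0 past the fold in all 6 classes with enough UMIs under every alternative run, with values in mature enterocyte-like cells from 3.96 to 4.21, while in Paneth-like cells, short of 300 UMIs, it was 0.39 after thinning. Ratios past the fold that fell short of it under alternatives were, besides Mgst1 and Mgst2 as given above, Gstm3 in cycling-like cells for B + A 10 over B + A 0 (past it in 10 of 11), Gsta4 (10 of 11) and Gm3776 (9 of 11) in mature enterocyte-like cells for B + A 0 over AOS 0, and in Paneth-like cells Mgst1 in both comparisons (10 and 9 of 11) and Mgst3 in the second (9 of 11). Gm3776 in early enterocyte-like cells, below 300 UMIs, turned from 1.62 to 0.955 after thinning for B + A 10 over B + A 0. Of 700 levels recomputed, 215 left their counting interval, and scaling without ribosomal protein, mitochondrial and defensin genes moved 57 of 70. The members highest in an enterocyte class among the 7 were 9 under each alternative that gives levels, and those lowest in Paneth-like cells ran from 4 to 7. Over the 7 classes, 16 pairs of member and class were past the fold for B + A 0 over AOS 0 and 5 for B + A 10 over B + A 0. Gstp1 gave 6 of the 16. By class, 11.4% to 42.4% of all genes were past it in the first comparison and 8.23% to 28.5% in the second. With a fold of 1.5 the pairs were 8 and 1, with at least 100 UMIs 25 and 8, and with no filter on UMIs 32 and 16. No share of all genes is given beside these counts or those of the alternatives that follow. They show only how far the counts depend on the settings. Thinning to 1000 UMIs gave 13 for the second, with fewer UMIs behind each ratio. In mature enterocyte-like cells the 5 members of the first comparison were 2 with a fold of 1.5 and 3 with clusters weighted the same in every library, which was added after seeing the data. The 1 member of the second was 3 without joining the libraries, 2 with means of per-cell values and 5 in thinned cells. Leaving out a replicate was not possible with 1 library per group. No paired analysis was possible because each group is 1 library. Depth limits Gsta1 and Gclc most, which had 1325 and 2941 UMIs in all cells.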
